A study of Homo sapiens with 6 samples.

Results

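The genes described here were *DDIT4*, the 3 sestrin genes *SESN1*, *SESN2* and *SESN3*, and 6 genes that act on the kinase complex mTORC1, namely *RHEB*, *RHEBL1*, *TSC1*, *TSC2*, *RRAGD* and *DEPTOR*. They were chosen by symbol, from a list drawn up when the differences between lactate and control in these same libraries were already known. Their values are therefore a description, and the p-values below, adjusted over all tested genes, give no independent evidence for the choice. All 10 were among the 15924 genes of the count table and among the 13188 genes with enough counts to be tested.

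Messenger RNA was sequenced from WPMY-1 cells, a human prostate stromal line of myofibroblast character that was immortalized with SV40 large T antigen. Cells were given 24 mM lactate for 48 h (lactate, n = 3) or no added lactate (control, n = 3), and each group is 1 line in culture rather than tissue from donors. The labels describe growth with CO2, while the methods of the study describe a bicarbonate-free medium kept without CO2 and lactic acid brought with base to just below neutral pH, and the pH of the control medium is not given in the sources used here, so lactate and acidity cannot be told apart. The series text and the study call the samples biological replicates but do not say whether they were separate cultures, so the p-values measure the spread between these libraries, which may be technical.

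The libraries held 20238653 to 46505372 counts, with the largest total in control replicate 1. On the principal component holding most variance (58.2%), the lactate libraries lay at -54.85 (replicate 1) to -12.5 and the control libraries at 3.89 (replicate 1) to 48.6. On another component, holding 23.6% of the variance, replicate 1 of each group (14.5 in lactate and 38.7 in control) lay above the other 4 libraries (-25.2 to 3.99). There lactate replicate 1 was closer to control replicate 2 (3.99) than to control replicate 1. Of 12 stromal markers, 12 were tested and summed to 7551 to 7790 CPM (counts scaled to the size of the library, corrected by TMM) in lactate, against 6780 to 7624 CPM in control. Of 11 prostate epithelial markers 5 were tested, and their sums were 847 to 1226 CPM in lactate and 879 to 1310 CPM in control, most of it from *KRT18*, whereas *EPCAM* had at most 7 counts in lactate and 14 in control. Of 9 endothelial and immune markers 2 were tested, with sums of 78.7 to 100.4 CPM in lactate and 56.3 to 60.6 CPM in control, most of it from *CD68*, and *PTPRC* had at most 3 counts in lactate and 12 in control. Of these markers *TAGLN* (log2 fold change 1.57) and *CD68* (0.67) passed as higher with lactate. Whether these markers have a part in the results below was not tested, and in bulk RNA fewer cells of a kind and less RNA per cell cannot be told apart.

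The kinase mTOR, within mTORC1, couples growth to the supply of amino acids, growth factors and energy. Growth factor and stress signals meet at the TSC1-TSC2 complex, which switches off the small GTPase RHEB, the direct activator of mTORC1, and DDIT4 (also called REDD1) is an inhibitor of mTORC1 that is induced by low oxygen, glucocorticoids and the stress factor ATF4 and acts through this complex. Amino acid signals reach mTORC1 through the Rag GTPases on the lysosome, and sestrins hold that arm back by binding GATOR2.

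The promoters of *DDIT4* and *SESN2*, the most abundant of the 10 genes with lactate and the sestrin past the threshold, are shown because both genes were higher with lactate and RefSeq (GRCh38.p14) gave 1 promoter for each. The windows run from 250 bases before to 50 bases after the annotated start, at chr10:72273674-72273973 and chr1:28259268-28259567, both on the plus strand, and capitals mark the core of the motif bound by hypoxia-inducible factors, ACGTG or GCGTG, on either strand.
DDIT4: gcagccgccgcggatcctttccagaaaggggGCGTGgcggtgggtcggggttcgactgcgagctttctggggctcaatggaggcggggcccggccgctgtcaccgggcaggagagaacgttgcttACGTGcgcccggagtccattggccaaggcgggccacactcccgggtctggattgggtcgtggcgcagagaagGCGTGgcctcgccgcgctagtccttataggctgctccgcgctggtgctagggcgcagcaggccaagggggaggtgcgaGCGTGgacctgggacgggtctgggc
SESN2: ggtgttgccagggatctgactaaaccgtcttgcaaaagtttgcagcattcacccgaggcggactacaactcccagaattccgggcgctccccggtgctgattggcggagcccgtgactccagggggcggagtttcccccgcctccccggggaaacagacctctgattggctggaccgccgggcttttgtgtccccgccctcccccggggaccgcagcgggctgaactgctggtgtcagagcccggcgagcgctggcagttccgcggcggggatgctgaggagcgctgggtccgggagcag
The *DDIT4* window held 4 matches to that core, beginning at -219, -125, -53 and 25 with the annotated start counted as 0. The *SESN2* window held 0. Of 35116 RefSeq promoters of the same length, 48.4% held at least 1 match and 4.40% held at least 4. Neither window held the E-box CACGTG (in 7.26% of promoters, and overlapping the core above), TGATGNAA, the form searched for ATF4 sites (3.62%), the cAMP response element TGACGTCA (1.85%), the AP-1 motif TGANTCA (7.71%) or the FoxO motif GTAAACA (3.42%), all searched on both strands. These are matches of letters in 1 window and do not show binding. The GC content was 69.7% in the *DDIT4* window and 67.0% in the *SESN2* window, against a median of 58.7% over all these promoters. The shares of promoters with a match were not adjusted for GC content.

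Of the 10 genes, 4 passed the test as higher with lactate, *RHEBL1*, *DDIT4*, *RRAGD* and *SESN2*. The other 6 did not pass, and 0 of 10 passed as lower. Across all tested genes 5.29% passed as higher and 4.14% as lower (edgeR quasi-likelihood test, adjusted p under 0.05), and since the list was drawn up from the same comparison nothing is read from the difference. At an unadjusted p under 0.05 there were likewise 4 higher and 0 lower, where 13.9% of all tested genes were higher and 13.9% lower. DESeq2 also called 4 higher and 0 lower, beside 7.68% and 7.35% of the 14380 genes to which it gave an adjusted p. The 3 lactate and 3 control libraries did not overlap for 5 genes that were higher and 1 that was lower with lactate, beside 17.3% and 15.3% of all tested genes. The median log2 fold change was 0.39 over the 10 genes and -0.02 over all tested genes.

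**Figure D1:**
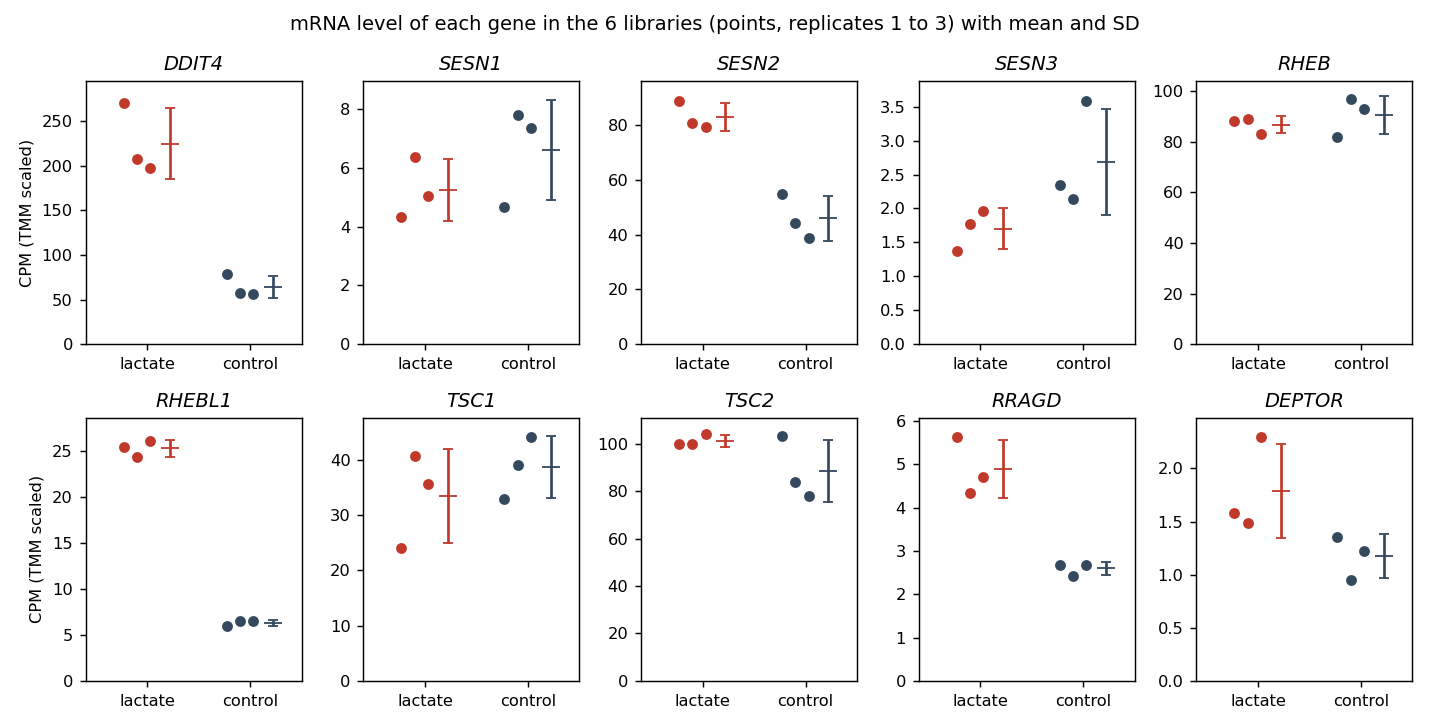
Level of each of the 10 genes in each library in CPM, on linear axes from 0 with a scale of their own, as points for the 3 lactate libraries left of those for the 3 control libraries, with the mean and SD of each group beside them. *DDIT4*, *RHEBL1*, *SESN2*, *RRAGD* and *DEPTOR* had every lactate library above every control library, with the widest gap for *RHEBL1*, and *SESN3* had every lactate library below.

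*DDIT4* had 269.9, 207 and 197 CPM in lactate, against 78.5, 57.5 and 56.3 CPM in control. The lowest lactate library stood 2.51 times above the highest control library, so the groups lay far apart, and replicate 1 was the highest library within each group. The means were 225 ± 39.4 CPM in lactate and 64.1 ± 12.5 CPM in control (SD, n = 3 each), which is 1.81 as a log2 fold change (SE 0.192, adjusted p = 0.00196 by edgeR). Counts behind these values ran from 4816 to 5133 in lactate and from 1207 to 3425 in control. The rise was the 87th largest of the 13188 tested genes. It passed in all 13 alternative analyses, with log2 fold changes from 1.56 to 1.98. The gene lies at chr10:72273920-72276036 (GRCh38, plus strand), and *DDIT4-AS1* on the opposite strand covers 847 of its 2058 exon bases (41.2%). Since the strand setting of the counting is not given, reads from this antisense RNA cannot be told apart from those of *DDIT4*.

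*DDIT4L*, the paralogue also called REDD2 and likewise an inhibitor of mTOR signaling, had 8.05, 9.84 and 11.2 CPM in lactate, against 1.17, 3.05 and 2.17 CPM in control. Every lactate library lay above every control library, and the means were 9.69 ± 1.57 CPM in lactate and 2.13 ± 0.94 CPM in control (log2 fold change 2.22, SE 0.335, adjusted p = 0.00725). Per kilobase of the longest transcript it made up 2.91 ± 0.867% of the pair *DDIT4* and *DDIT4L* in lactate and 2.31 ± 1.24% in control, and these shares overlapped.

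*SESN2*, which encodes the sestrin known as a leucine sensor and as a target of ATF4, was the only sestrin past the threshold. It had 89.0, 80.8 and 79.5 CPM in lactate, against 54.9, 44.2 and 38.9 CPM in control. The groups did not overlap, and the lowest lactate library stood 1.45 times above the highest control library. The means were 83.1 ± 5.16 CPM in lactate and 46.0 ± 8.14 CPM in control, and the log2 fold change was 0.85 (SE 0.165, adjusted p = 0.0186). This call was lost when lactate replicate 3 (adjusted p = 0.0832), control replicate 2 (0.115) or control replicate 3 (0.0715) was left out, and with the dependence on GC content and length removed the log2 fold change was 0.57. *SESN2* lies at chr1:28259527-28282491 on the plus strand.

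*SESN1*, which encodes a sestrin that also binds GATOR2, had 4.31, 6.37 and 5.04 CPM in lactate, against 4.66, 7.81 and 7.36 CPM in control. The groups overlapped, and the lowest value in each was replicate 1. The log2 fold change was -0.32 (SE 0.261, adjusted p = 0.440), and the gene lies at chr6:108986437-109094819 on the minus strand.

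*SESN3*, known as a target of FoxO factors, had 1.37, 1.78 and 1.97 CPM in lactate, against 2.34, 2.14 and 3.58 CPM in control. Here the order was the reverse of that of *SESN2*, with every lactate library below every control library. These values rest on 26 to 48 counts in lactate and 45 to 102 in control, and the log2 fold change of -0.65 (SE 0.299) did not pass (adjusted p = 0.194). *SESN3* lies at chr11:95165513-95232541 on the minus strand.

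Levels per kilobase assume reads along the whole transcript, as from the poly(A) libraries that the labels describe, whereas the library section of the study describes a 3′ end kit, with which such levels and shares of different genes would not be comparable. Counted per kilobase of the longest annotated transcript, *SESN2* made up 94.9, 92.1 and 93.3% of the sestrin mRNA in lactate, against 91.0, 83.9 and 82.0% in control. Its share was thus higher in each lactate library than in any control library, with means of 93.5 ± 1.42% in lactate and 85.6 ± 4.74% in control. *SESN1* had 5.83% in lactate and 12.5% in control, and *SESN3* had 0.698% in lactate and 1.87% in control. With the median transcript length in place of the longest, the share of *SESN2* was 76.9% in lactate and 58.1% in control, so the shares depend on the isoforms assumed.

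Among the GTPases that switch mTORC1 on, *RHEBL1* passed the test and *RHEB* did not. *RHEBL1*, which encodes a RHEB-like protein able to activate mTORC1 when overexpressed, had 25.5, 24.3 and 26.2 CPM in lactate, against 5.94, 6.57 and 6.50 CPM in control. The libraries within each group lay close together and the groups far apart, the lowest lactate library standing 3.70 times above the highest control library. The means were 25.3 ± 0.933 CPM in lactate and 6.34 ± 0.345 CPM in control, 4.00-fold higher in the lactate libraries (log2 fold change 2.00, SE 0.166, adjusted p = 0.000638). The rise ranked 60th of 13188 by size and 12th by p. It passed in all 13 alternatives, with log2 fold changes from 1.85 to 2.03. The gene lies at chr12:49064685-49070025 on the minus strand.

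*RHEB* itself had 88.0, 89.1 and 83.0 CPM in lactate, against 82.0, 96.9 and 92.8 CPM in control. The groups overlapped, and the log2 fold change was -0.06 (SE 0.136, adjusted p = 0.793). *RHEB* lies at chr7:151466012-151520120 on the minus strand and has 3 annotated processed pseudogenes, with which reads may be shared.

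Per kilobase, *RHEBL1* made up 32.3, 31.0 and 34.2% of the mRNA of the pair in lactate, against 10.6, 10.0 and 10.3% in control. *RHEB* remained the more abundant of the pair in every library, at 2.08 ± 0.15 times the *RHEBL1* level in lactate and 8.68 ± 0.283 times in control. With median transcript lengths the *RHEBL1* share was 16.4% in lactate and 4.50% in control.

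**Figure D2:**
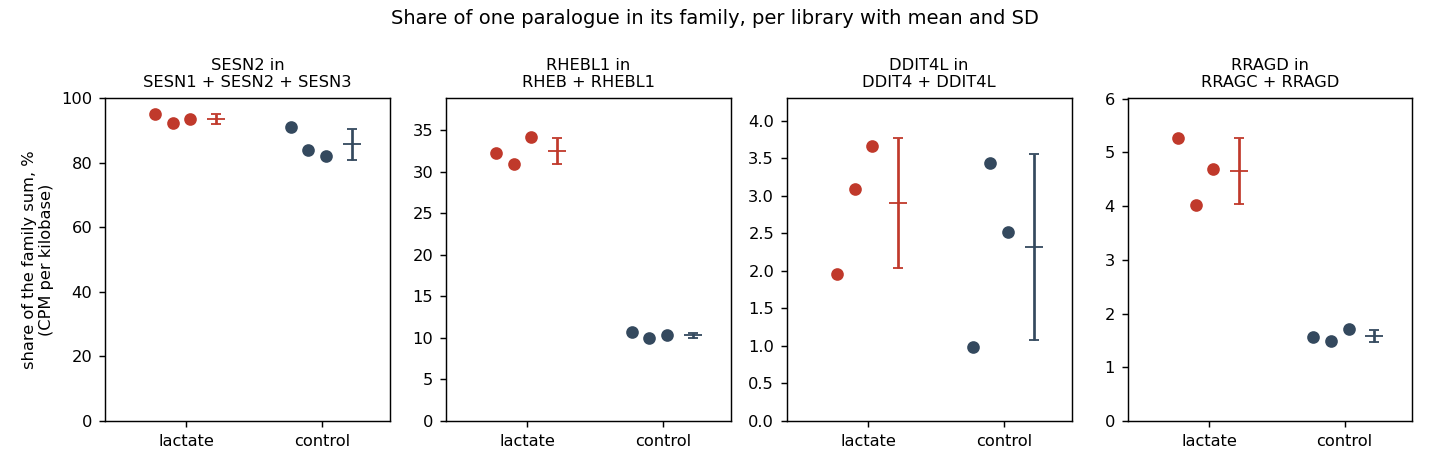
Share of 1 gene in the summed level of its family, in percent per kilobase of the longest transcript, as points for each lactate library (left) and each control library (right), with the mean and SD of each group. The *RHEBL1* share stood at 31.0 to 34.2% in lactate and 10.0 to 10.6% in control, the *SESN2* and *RRAGD* shares were also higher in every lactate library, and the *DDIT4L* shares overlapped.

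Neither gene of the complex that switches RHEB off passed the test. *TSC1*, which encodes hamartin, the scaffold of the complex, had 24.1, 40.7 and 35.7 CPM in lactate, against 32.9, 39.1 and 44.1 CPM in control. The groups overlapped, and the log2 fold change was -0.21 (SE 0.216, adjusted p = 0.557). *TSC2*, which encodes tuberin, the subunit that acts on RHEB, had 99.9, 99.7 and 104 CPM in lactate, against 103, 84.0 and 78.1 CPM in control. Control replicate 1 lay within the range of the lactate libraries and the other controls below it. The log2 fold change of 0.20 (SE 0.149) did not pass (adjusted p = 0.416), and it was -0.10 once the dependence on GC content and length was removed. Without the first library of either group it was 0.33, with an adjusted p of 0.00506. *TSC1* made up 19.3 ± 4.02% of the pair per kilobase in lactate and 24.4 ± 5.22% in control, with overlap. *TSC1* lies at chr9:132891348-132946874 on the minus strand. *TSC2* lies at chr16:2047465-2089487 on the plus strand, where *PKD1* and *NTHL1* on the opposite strand cover 3.96% and 2.05% of its exon bases.

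In the amino acid arm, *RRAGD* encodes RagD, a Rag GTPase that pairs with RagA or RagB, helps to hold mTORC1 at the lysosome and is known as a target of TFEB. It had 5.63, 4.34 and 4.71 CPM in lactate, against 2.68, 2.43 and 2.68 CPM in control. Every lactate library lay above every control library. The means were 4.89 ± 0.661 CPM in lactate and 2.60 ± 0.145 CPM in control (log2 fold change 0.91, SE 0.217, adjusted p = 0.0353), from 105 to 115 counts in lactate and 51 to 117 in control. The call was lost without lactate replicate 1 (adjusted p = 0.0836), lactate replicate 2 (0.0696), lactate replicate 3 (0.129), control replicate 2 (0.173) or control replicate 3 (0.112). With the dependence on GC content and length removed the log2 fold change was 1.14. The gene lies at chr6:89364636-89412270 on the minus strand.

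*RRAGC*, the paralogue that encodes RagC and takes the same place in the Rag dimer, moved the other way. It had 56.5, 57.8 and 53.4 CPM in lactate, against 94.5, 89.6 and 86.0 CPM in control. No libraries overlapped, and the fall was -0.69 on the log2 scale (SE 0.133, adjusted p = 0.0185). That call too was lost without lactate replicate 2 (0.0597) or 3 (0.114) or control replicate 2 (0.108) or 3 (0.0562). *RRAGC* stayed more abundant than *RRAGD* per kilobase, by 20.7 ± 2.95 times in lactate and 62.3 ± 4.34 times in control, and the *RRAGD* share of the pair was 4.66 ± 0.621% in lactate and 1.58 ± 0.111% in control. The partners *RRAGA* (log2 fold change 0.08, adjusted p = 0.716) and *RRAGB* (0.04, adjusted p = 0.933) did not pass.

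*DEPTOR*, which encodes an inhibitor bound to mTOR in both of its complexes, was among the least abundant of the 10 genes, with 1.58, 1.49 and 2.29 CPM in lactate and 1.35, 0.952 and 1.22 CPM in control. Every lactate library lay above every control library by a narrow margin. On 30 to 56 counts in lactate and 20 to 59 in control, the log2 fold change of 0.59 (SE 0.312) did not pass (adjusted p = 0.248).

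**Figure D3:**
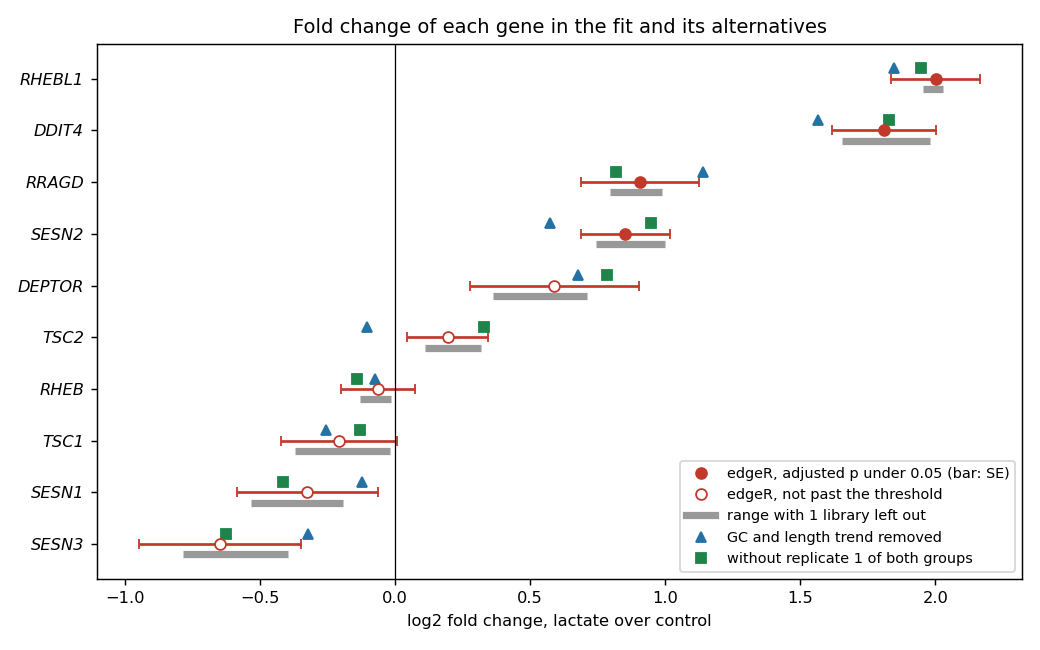
Log2 fold change of each of the 10 genes, lactate against control, as circles (filled where the test was passed) with bars of 1 standard error, beside grey bars for the range with 1 library left out, triangles for the fit with GC and length trends removed and squares for the fit without replicate 1 of either group. *RHEBL1* (2.00) and *DDIT4* (1.81) stood well above *RRAGD* (0.91) and *SESN2* (0.85), the other genes that passed, the remaining 6 ran from -0.65 to 0.59, and only the triangle of *TSC2* lay across 0 from its circle.

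The levels of different genes were compared per kilobase of the longest transcript, in CPM per kilobase. In lactate *DDIT4* came first at 129 ± 22.5, followed by *RHEB* (41.8 ± 1.57), *SESN2* (24.1 ± 1.49), *RHEBL1* (20.1 ± 0.74), *TSC2* (16.0 ± 0.403), *TSC1* (3.84 ± 0.974), *SESN1* (1.49 ± 0.298), *RRAGD* (0.999 ± 0.135), *DEPTOR* (0.695 ± 0.172) and *SESN3* (0.178 ± 0.032). In control *RHEB* came first at 43.6 ± 3.70, followed by *DDIT4* (36.7 ± 7.16), *TSC2* (13.9 ± 2.07), *SESN2* (13.3 ± 2.36), *RHEBL1* (5.02 ± 0.274) and *TSC1* (4.44 ± 0.647), and the last 4 kept the order seen in lactate. The libraries of neighbours overlapped for *RHEB* and *DDIT4*, *TSC2* and *SESN2*, *RHEBL1* and *TSC1*, and *RRAGD* and *DEPTOR* in control, and for *RRAGD* and *DEPTOR* in lactate. *DEPTOR* and *SESN3* overlapped in control as well. Compared within each library, however, these pairs kept their order in every library of the group named, apart from *RHEB* and *DDIT4*. In control replicate 1 *DDIT4* (44.9) stood above *RHEB* (39.5), and in the other controls below it. With the longest transcripts *DDIT4* and *RHEB* were thus not separated in control, while *DDIT4* stood above *RHEB* in every lactate library. With median transcript lengths *DDIT4* again came first in lactate and *RHEB* in control, while the order among the other genes changed. In control *RHEB* (107 to 127) then stood above *DDIT4* (74.8 to 104) without overlap, so their separation there depends on the isoforms assumed.

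Replicate 1 held the highest value of its group for *DDIT4*, *SESN2* and *RRAGD*, in lactate and in control, and the lowest for *SESN1* and *TSC1*. For *RRAGD* in control this was nearly a tie, with 2.683 CPM in replicate 1 and 2.677 CPM in replicate 3. The GC content of the longest transcript was 58.1% for *DDIT4*, 59.5% for *SESN2* and 42.1% for *RRAGD*. It was 43.4% for *SESN1* and 48.5% for *TSC1*. Whether GC content has a part in the order of the replicates was not tested. Removing the dependence on GC content and length in each library left the 4 calls in place.

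The wider pathway was described by lists of other genes, drawn up with earlier results of these libraries known, and the counts below stand beside the shares of all genes given above for each threshold. Of 10 genes of the mTOR kinase complexes, 0 passed in either direction (0 at an unadjusted p under 0.05, and 0 by DESeq2), and *MTOR* had 182 ± 42.6 CPM in lactate and 170.2 ± 10.2 CPM in control. *MAPKAP1*, which encodes a subunit of the other complex, mTORC2, had 224 ± 11.9 CPM in lactate and 215 ± 25.9 CPM in control. The median log2 fold change of this list was 0.10, and -0.11 with the GC and length dependence removed.

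Of 27 tested genes of the Rag, Ragulator and amino acid sensing arm, 1 rose and 1 fell, with a median log2 fold change of -0.01. At an unadjusted p under 0.05 there were 3 higher and 2 lower, and by DESeq2 1 higher and 1 lower. The fall in the main test was that of *RRAGC*. The rise was *WDR59*, a GATOR2 subunit, with 53.9 ± 0.886 CPM in lactate and 36.9 ± 1.92 CPM in control (log2 fold change 0.55, adjusted p = 0.0409), a call lost without the filter on low counts (0.0527) and on leaving out any library other than control replicate 1 (0.0693 to 0.211). Of 22 genes that carry growth factor and energy signals to the TSC complex, 1 rose (*DDIT4L*) and 0 fell (4 fell at an unadjusted p under 0.05, and 2 by DESeq2), and *TBC1D7*, the smallest subunit of the TSC complex, did not pass (log2 fold change 0.39, adjusted p = 0.258).

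Of 17 tested genes downstream of mTORC1, 1 rose and 0 fell, beside 5 higher and 3 lower at an unadjusted p under 0.05, and 5 higher and 1 lower by DESeq2. The rise was *TFEB*, which encodes a lysosomal transcription factor that mTORC1 keeps out of the nucleus, with 5.29 ± 0.929 CPM in lactate and 2.51 ± 0.0521 CPM in control (log2 fold change 1.07, SE 0.223, adjusted p = 0.0226). The *TFEB* call, like that of *RRAGD*, was lost on leaving out any library other than control replicate 1 (adjusted p from 0.0526 to 0.126). *EIF4EBP1*, a translation repressor that mTORC1 phosphorylates, had 181 ± 52.0 CPM in lactate and 102 ± 21.6 CPM in control and did not pass (adjusted p = 0.0531). Of 14 lysosomal and autophagy targets of the TFEB family, *WIPI1*, which acts in autophagosome formation, rose (log2 fold change 1.01, adjusted p = 0.00947) and *GPNMB*, a lysosomal membrane glycoprotein gene, fell (-0.84, adjusted p = 0.016). At an unadjusted p under 0.05, 3 of these targets were higher and 3 lower, and DESeq2 called 1 higher and 1 lower. *WIPI1* lost its call without lactate replicate 3 (0.0679) or control replicate 2 (0.0732), and *GPNMB* without replicate 2 or 3 of either group (0.0536 to 0.0983).

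Of 14 transcription factors known to induce *DDIT4* or sestrins, 1 rose, *FOXO4* (14.1 ± 1.37 CPM in lactate and 8.02 ± 1.22 CPM in control, log2 fold change 0.81, adjusted p = 0.0333), and 0 fell (1 at an unadjusted p under 0.05, and 0 by DESeq2). The *FOXO4* call was lost without replicate 2 or 3 of either group (adjusted p from 0.0833 to 0.175). The mRNAs of *ATF4* (log2 fold change 0.40, adjusted p = 0.134) and *HIF1A* (-0.49, adjusted p = 0.258) did not pass. mRNA levels of these factors do not measure their activity.

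Targets of some of the factors known to induce *DDIT4* or sestrins were counted in the same way. Of 18 ATF4 targets, 8 rose and 1 fell (*ATF5*), with a median log2 fold change of 0.59, and the largest rises were *VLDLR* (1.58), *CHAC1* (1.55), *PCK2* (1.28) and *TRIB3* (1.28). Of 20 hypoxia-inducible genes, 10 rose and 0 fell (0 at an unadjusted p under 0.05, and 0 by DESeq2), with a median of 0.51. *CA9*, which encodes a carbonic anhydrase that regulates pH at the cell surface, rose most (3.82, SE 0.368). Its level was low, at 2.55 ± 0.313 CPM in lactate and 0.172 ± 0.0471 CPM in control, so the size of this rise rests on few control reads. Next came *ALDOC* (1.73), *BNIP3* (1.12) and *PDK1* (1.06), which act in glycolysis, mitophagy and the control of pyruvate oxidation. Of the ATF4 targets, 5 rose when lactate replicate 2, lactate replicate 3 or control replicate 3 was left out, and 3 without control replicate 2. Of the hypoxia genes, 5 rose without lactate replicate 2 or control replicate 3, and 3 without lactate replicate 3 or control replicate 2.

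Of 10 tested FoxO targets, *TXNIP*, an inhibitor of thioredoxin, rose (1.30), while *FBXO32*, a ubiquitin ligase gene (-2.36), and *SOD2*, the mitochondrial superoxide dismutase (-1.94), fell. Of 9 glucocorticoid-inducible genes, 3 rose, *DUSP1* (1.16), *TSC22D3* (0.98) and *PER1* (0.89), and 0 fell (0 at an unadjusted p under 0.05, and 0 by DESeq2), and the number that rose was 1 without lactate replicate 3 or control replicate 3 and 0 without control replicate 2.

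**Figure D4:**
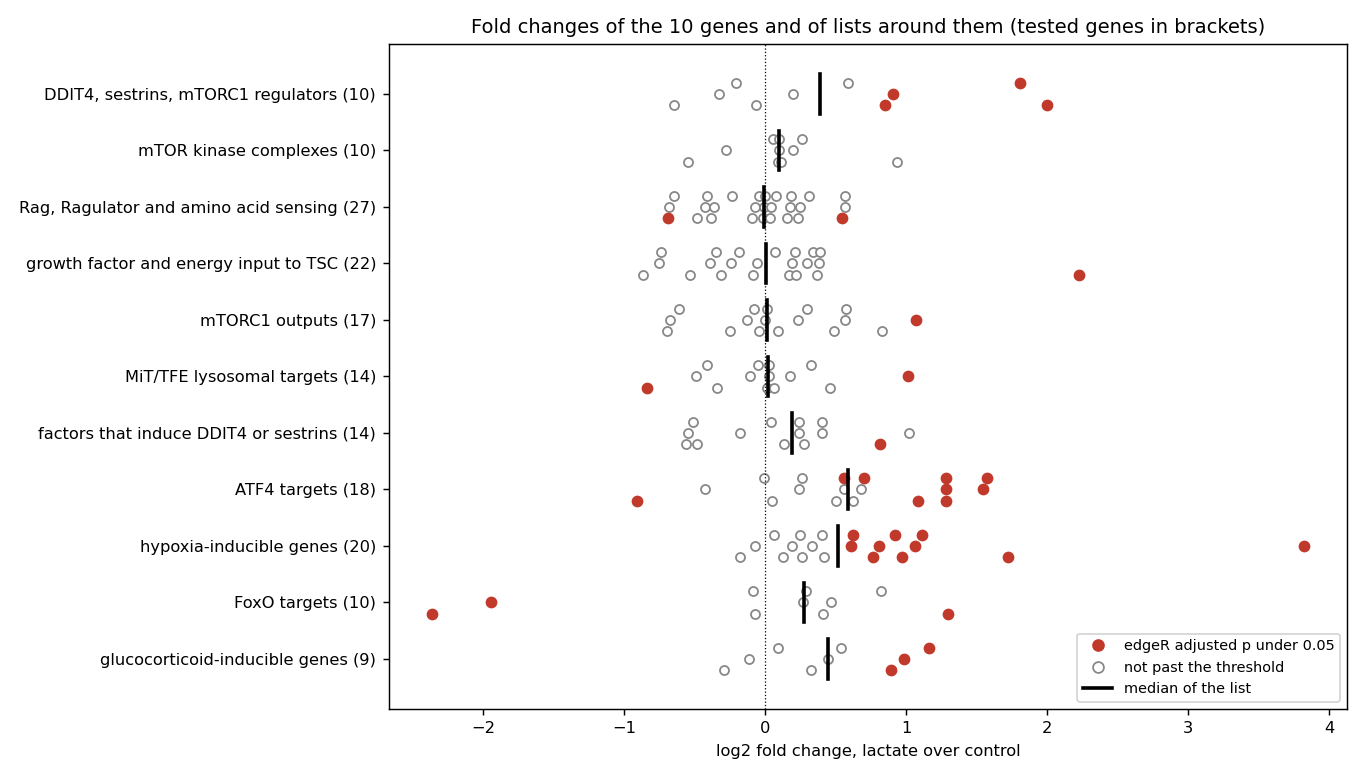
Log2 fold change, lactate against control, of each tested gene among the 10 and in each list of other genes, with a bar at the median of the list and filled points for genes that passed the test. The medians of the ATF4 targets (0.59), the hypoxia-inducible genes (0.51) and the glucocorticoid-inducible genes (0.45) stood above that of all tested genes (-0.02). So did, by less, those of the FoxO targets (0.28) and of the factors that induce *DDIT4* or sestrins (0.19). The medians of the mTORC1 machinery lay near 0.

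The genes with a profile over the 6 libraries most like that of *DDIT4*, by the root mean square difference of centred log2 CPM among 8863 genes with a mean of at least 10 CPM, were *TAGLN* (0.136), *CBS* (0.137), *PALM* (0.137), *ALDOC* (0.152) and *ASMTL* (0.156). *TAGLN* encodes a protein of the contractile cytoskeleton, *CBS* an enzyme that makes cystathionine from homocysteine, and *ALDOC* a glycolytic aldolase. Nearest to *SESN2* were the clock gene *PER1* (0.0473), the choline transporter gene *SLC44A2* (0.0513) and *PFKFB4* (0.0535), which encodes a regulator of glycolysis. Nearest to *RHEBL1* were the receptor gene *NOTCH3* (0.156), *ADAMTSL4* (0.174) and *SEL1L3* (0.183), and nearest to *RRAGD* were *CADM4* (0.0702), the kinase gene *PIM1* (0.0707) and *STAG3L4* (0.0723). All these profiles share the same 6 libraries and the same group difference.

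Genes next to the 4 that passed were looked up to see whether whole neighborhoods moved. Of 16 neighbors, 4 for each gene, 1 passed, beside 5.29% higher and 4.14% lower of all tested genes. It was *LMBR1L*, at 26525 bases from *RHEBL1*, with a log2 fold change of 0.78 (adjusted p = 0.0424). On the other side of *RHEBL1*, *PRKAG1* (0.21, adjusted p = 0.443) and *DDN* (1.25, adjusted p = 0.0659) did not pass. The nearest tested genes on each side of *DDIT4* were *ANAPC16* (-0.26, adjusted p = 0.266) and *DNAJB12* (0.02, adjusted p = 0.944), and those of *SESN2* were *ATPIF1* (0.12, adjusted p = 0.690) and *MED18* (0.31, adjusted p = 0.475). Beside *RRAGD*, *UBE2J1* (-0.23, adjusted p = 0.379), *ANKRD6* (0.82, adjusted p = 0.198) and the more distant *LYRM2* (-0.81, adjusted p = 0.0584) did not pass.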

How the data were processed

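Per the labels, poly(A) RNA went into directional libraries read single-end on a NextSeq 500. The library section of the study describes a 3′ end kit instead, and the labels were followed. The authors deposited a table of raw counts for each gene, made with the BaseSpace RNA-Seq Alignment app. STAR, DESeq2 and hg38 are named in the submitters' processing notes, and versions and strand setting are not given in the sources used here. Groups came from the treatment label.

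The main test was the two-sided quasi-likelihood F test of edgeR 4.0.16 (R 4.3.3) after filterByExpr and TMM scaling, with Benjamini-Hochberg adjustment over 13188 genes holding 99.96% of counts and a threshold of 0.05. Standard errors were |log2 fold change| over the root of F, and the common dispersion corresponded to a coefficient of variation of 20.2%. DESeq2 1.42.0, other scalings and filters, a fit with GC and length trends removed, and fits with libraries left out were alternatives. The code was tested on simulated data. The closest libraries, lactate replicates 2 and 3, differed by 7.13 chi-square units per degree of freedom, so none was a copy.

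GENCODE 29 (GRCh38) gave coordinates and lengths, with 15281 of 15924 symbols (96.0%) matched, 776 of them through RefSeq synonyms. Members and lists were chosen with earlier results of these data known. Named genes were the members, up to 4 genes past the threshold per list by size of change (or the 2 most abundant where none passed), and the 5 (*DDIT4*) or 3 nearest profiles. *RRAGA*, *RRAGB*, *TBC1D7*, *EIF4EBP1*, *ATF4*, *HIF1A*, *ATF5*, the marker genes given by count, the neighbors and the shares within *RRAGC*-*RRAGD* and *DDIT4*-*DDIT4L* were added after their values were seen. Some genes and 1 list are not reported here.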

Additional observations from a re-analysis of the deposited data

How the results depend on the processing

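Over 50 named genes and 13 alternatives, 646 of 650 values kept their direction. The 4 that turned were *TSC2* (-0.10), *MAPKAP1* (-0.036) and *MTOR* (-0.060) with GC and length trends removed, and *MTOR* without lactate replicate 3 (-0.046, within a range of -0.046 to 0.273 with 1 library left out). Of 42 named calls, 24 were lost in at least 1 alternative, and 86 of the 88 losses came with a library left out. The 2 calls gained, of *TSC2* and *MTOR*, came in the fit without the first library of either group. Across all tested genes, 698 were higher and 546 lower. DESeq2 gave 1104 higher and 1057 lower, removal of GC and length trends 1342 and 1611, and the 4 libraries without the first of either group 3002 and 3293. Leaving out 1 library gave 92 (without control replicate 2) to 1480 (without control replicate 1) higher, and 79 (without lactate replicate 3) to 1612 (without control replicate 1) lower. Of the 10 members, 2 to 4 were higher with 1 library left out, with 2 remaining (*DDIT4* and *RHEBL1*) without lactate replicate 3, control replicate 2 or control replicate 3. The 4-library fit gave 5, the added gene being *TSC2*, and 0 were lower in any alternative. No paired analysis was possible because the replicate numbers only follow the order of the samples. Depth limits *SESN3* and *DEPTOR*, with at most 102 counts in a library.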
